A study of Mus musculus with 10 samples.

Results

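The 40 genes described here act in G2 phase and mitosis, and cover chromosome structure, the cyclins and CDK1, other mitotic kinases, the kinetochore and its checkpoint, the spindle and cytokinesis, and anaphase with its proteolysis. They are a named list, and all 40 were found among the 34162 gene names of the series, where they were spread over 180 of 92214 transcript rows. RNA was sequenced in 10 libraries of melanoma cells from C57BL/6:SV129 mice, which FACS had sorted from fresh tumours by GFP, with GFP+ cells labelled c-Myc-high and GFP- cells c-Myc-low. The groups were metastatic c-Myc-high (3 libraries, lymph node), metastatic c-Myc-low (3, lymph node), primary c-Myc-high (2, skin) and primary c-Myc-low (2, skin). All 4 groups share the strain, the sort from fresh tumours and an RNA amplification step. The alleles that drive the tumours and the GFP, the animals' ages, the number of animals and any treatment were not given in the sources used here. No source says that replicates are separate animals, and the spread that the p-values rest on may therefore be technical.

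Cells that enter mitosis express these genes together. The MuvB complex, with B-Myb (Mybl2) and later FoxM1, switches them on late in the cell cycle, and in resting cells the DREAM complex, which also contains MuvB, keeps them off. MuvB binds the cell cycle genes homology region (CHR) of their promoters, and the trimeric factor NF-Y binds CCAAT boxes upstream of it. In tumours the level of such genes, Mki67 above all, is widely read as a measure of how many cells are dividing. In bulk libraries of sorted cells a lower share of dividing cells and less of these RNAs per cell cannot be told apart.

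Promoters of 4 members whose values are given below show how these motifs are laid out. They are RefSeq sequences of the GRCm38.p6 build, each from 250 bases before to 50 bases after the transcription start, printed 5′ to 3′ on the gene's strand. Capitals mark the letters searched for on both strands, which were CCAAT (or ATTGG) for the NF-Y box and TTTGAA (or TTCAAA) and TTCGAA for the CHR.
Ccnb2, chr9:70421505-70421804, minus strand: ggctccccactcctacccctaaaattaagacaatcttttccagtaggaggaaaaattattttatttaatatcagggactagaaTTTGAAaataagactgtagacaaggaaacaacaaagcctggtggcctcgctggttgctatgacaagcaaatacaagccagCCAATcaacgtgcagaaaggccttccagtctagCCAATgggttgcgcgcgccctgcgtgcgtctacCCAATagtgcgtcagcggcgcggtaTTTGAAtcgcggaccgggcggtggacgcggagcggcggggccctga
Cdc20, chr4:118437294-118437593, minus strand: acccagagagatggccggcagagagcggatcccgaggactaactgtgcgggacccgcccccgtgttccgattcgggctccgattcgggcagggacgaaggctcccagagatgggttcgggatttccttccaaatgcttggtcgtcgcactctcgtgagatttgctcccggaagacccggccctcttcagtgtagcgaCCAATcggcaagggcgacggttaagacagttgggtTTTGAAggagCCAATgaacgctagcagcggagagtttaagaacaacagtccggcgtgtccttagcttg
Top2a, chr11:99024140-99024439, minus strand: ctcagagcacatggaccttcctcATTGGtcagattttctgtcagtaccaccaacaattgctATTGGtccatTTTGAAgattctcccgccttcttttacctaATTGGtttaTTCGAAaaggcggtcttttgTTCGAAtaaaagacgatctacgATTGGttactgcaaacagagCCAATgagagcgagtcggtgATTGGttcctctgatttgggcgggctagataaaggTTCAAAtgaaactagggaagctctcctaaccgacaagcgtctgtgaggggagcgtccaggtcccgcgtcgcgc
Ccnb1, chr13:100786437-100786736, minus strand: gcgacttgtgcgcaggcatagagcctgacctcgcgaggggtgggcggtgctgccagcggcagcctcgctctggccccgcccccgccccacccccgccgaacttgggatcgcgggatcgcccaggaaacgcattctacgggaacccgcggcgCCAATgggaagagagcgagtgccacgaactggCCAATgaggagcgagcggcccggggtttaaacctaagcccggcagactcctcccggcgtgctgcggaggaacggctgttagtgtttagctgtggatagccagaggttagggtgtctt
Ccnb2 held 3 CCAAT boxes whose starts lay 33 bases apart, with a TTTGAA just downstream of the last, while Cdc20 held TTTGAA between 2 boxes. Top2a held 6 boxes and 4 CHR matches. Ccnb1 held 2 boxes 32 bases apart and none of the CHR letters in this window.

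Of the 40 members, 34 had a promoter in the RefSeq table, which holds 27018 genes in all. The letters CCAAT occurred in the promoters of 25 of the 34 members (73.5%, exact 95% binomial interval 55.6% to 87.1%) and of 41.1% of all genes. TTTGAA also occurred in 25 of the 34 (73.5%) and in 20.2% of all genes, and TTCGAA in 3 (8.82%) and in 1.80%. At least 1 CCAAT box and 1 CHR match stood together in 23 members (67.6%, interval 49.5% to 82.6%) and in 8.61% of all genes. With 1 window per gene, the 55 CCAAT matches of the members lay at a median of 80.0 bases before the start, 34 of them in the last 100 bases before it, and none after it. The 35 CHR matches lay closer to the start, 24 of them within 50 bases of it and 16 after it. Member promoters had a median GC content of 59%, against 52.67% over all promoters, and these shares carry no test. Such matches describe letters only.

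**Figure D1:**
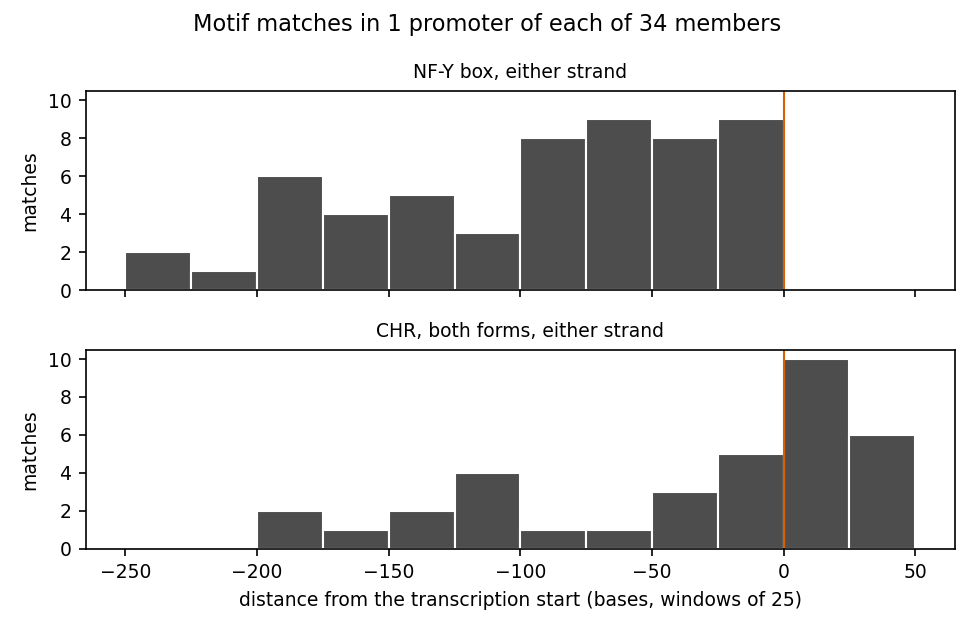
Number of motif matches in 1 promoter of each of 34 members by distance from the transcription start (bases, in windows of 25), with the NF-Y box above and the CHR below and the start as a vertical line. The 55 NF-Y box matches all precede the start and the 35 CHR matches gather around it.

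The libraries held 1603012 to 6844328 estimated counts, so that 3 counts stood for 0.438 to 1.87 CPM (a gene's counts for every 1000000 counts of its library), and the 40 members together drew 1047 to 32277 counts. Intervals and floors cover counting error only. Markers of other cell types differed between the libraries. Those of keratinocytes summed to 33.4 to 258 CPM in the metastatic and 24126 to 58177 CPM in the primary libraries. Krt5, a keratin of basal keratinocytes, stood at 13845 and 852 CPM in primary c-Myc-high and at 7643 and 3545 CPM in primary c-Myc-low libraries. All 12 melanocyte markers were measured, and summed to 3302 to 26939 CPM in metastatic and 401 to 2349 CPM in primary libraries. Markers of leukocytes as a whole summed to 289 to 6287 CPM in metastatic and 29.3 to 125 CPM in primary libraries. The T cell marker Cd3e, which is outside that sum, was at 0 in primary c-Myc-high replicate 2. Salivary gland genes summed to 184890 and 46720 CPM in replicates 1 and 3 of metastatic c-Myc-high cells and to at most 1024 CPM elsewhere. Fibroblast markers stood at 3446 CPM in primary c-Myc-high replicate 2 and at 8.21 CPM in replicate 1. The part of these cells in the results below was not tested.

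The summed level of the members differed more between the 2 primary c-Myc-high libraries than between any pair of group means. In metastases it was 1104, 2422 and 1845 CPM in the c-Myc-high and 1814, 1914 and 1826 CPM in the c-Myc-low libraries, in the order of their replicate numbers, as below. It was 6359.5 CPM in replicate 1 and 653 CPM in replicate 2 of the primary c-Myc-high cells, the highest and the lowest of the 10 libraries, against 2129 and 2724 CPM in those of the primary c-Myc-low cells. Krt5 and Krt14 were also highest in that replicate 1 and lowest of the primary libraries in that replicate 2. The sum of all keratinocyte markers went the other way, at 44982 CPM in that replicate 1 and 58177 CPM in that replicate 2. The part of keratinocytes in this difference was not tested. Means were 1790.2 ± 661 CPM in metastatic c-Myc-high (SD, n = 3), 1851 ± 54.8 CPM in metastatic c-Myc-low (SD, n = 3), 3506 ± 4035 CPM in primary c-Myc-high (SD, n = 2) and 2427 ± 421 CPM in primary c-Myc-low libraries (SD, n = 2). Each c-Myc-high group overlapped its c-Myc-low partner, and the metastatic c-Myc-low libraries all lay below the primary c-Myc-low ones. Mki67 alone made up 15.3% to 44.4% of a library's sum, and without it the sums kept the same 2 extremes, 3534 and 553 CPM.

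**Figure D2:**
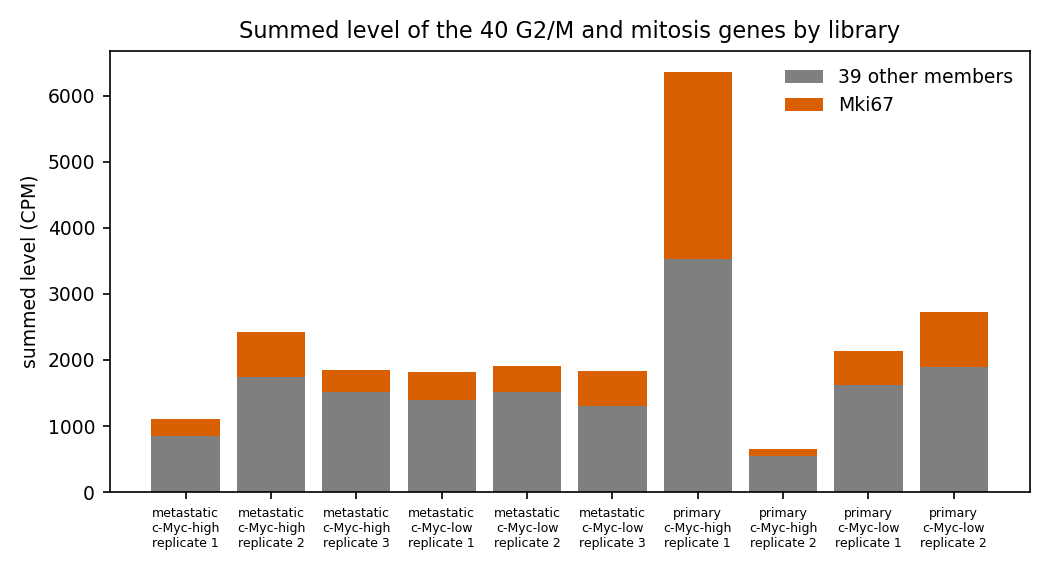
Summed level of the 40 members in each library in CPM, split into Mki67 and the 39 other members; each bar is 1 library, labelled with its group and replicate. Primary c-Myc-high replicate 1 stands at 6359.5 CPM and replicate 2 at 653 CPM, and the other 8 libraries lie between 1104 and 2724 CPM.

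Every member was detected somewhere, and few were missed anywhere. A count of at least 1 was found for 39 or 40 members in 9 libraries and for 37 in primary c-Myc-high replicate 2, where Aurka was at 0. At least 10 counts were found for 35, 40 and 33 members in replicates 1, 2 and 3 of metastatic c-Myc-high cells and for 39 or 40 in the metastatic c-Myc-low libraries. In the primary libraries the number was 39 and 21 in c-Myc-high replicates 1 and 2 and 40 in both c-Myc-low ones. Over all tested genes, 61.4% and 47.5% had at least 10 counts in these c-Myc-high libraries and 82.8% and 75.1% in the c-Myc-low ones. In metastases the shares were 74.7%, 81.1% and 58.3% in the c-Myc-high and 87.3%, 90.4% and 83.5% in the c-Myc-low libraries. The share of tested genes with at least 1 count was not computed. With every library thinned to 1200000 counts, at least 10 counts remained for 36 and 17 members in the primary c-Myc-high libraries and for 38 and 37 in the primary c-Myc-low ones, and for 46.7%, 43.0%, 61.6% and 59.6% of all tested genes in the same 4 libraries.

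The c-Myc-low libraries were alike and the c-Myc-high ones were not. The median SD of the members on the log2(CPM + 1) scale was 0.92 in metastatic c-Myc-high (n = 3), 0.32 in metastatic c-Myc-low (n = 3), 1.92 in primary c-Myc-high (n = 2) and 0.30 in primary c-Myc-low cells (n = 2). Over all 16805 genes tested the medians in the same order were 1.13, 0.53, 0.95 and 0.40. The SD was larger in the c-Myc-high than in the c-Myc-low group for 40 of 40 members in primary tumours, where 69.3% of all tested genes did so, and for 37 of 40 in metastases, where 80.0% did. Across the 5 c-Myc-low libraries of both sites the highest level of a member was 1.26 times (Tpx2) to 7.60 times (Ttk) its lowest, with a median of 2.15.

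Primary c-Myc-high replicate 1 held the highest level of the 10 libraries for 29 members, where it was highest for 15.1% of all tested genes. Replicate 2 held the lowest for 20 members and was lowest for 28.7% of tested genes. Ties were credited to replicate 1 (29.5% of tested genes), so the share of replicate 2 leaves out genes at 0 in both. The level in replicate 1 exceeded that in replicate 2 for 38 of 40 members, with a median ratio of 7.97. The share of all tested genes with that order, and their median ratio, were not computed. Against both primary c-Myc-low libraries, 32 members were higher and 7 lower in replicate 1, against 27.7% and 55.1% of tested genes, and 2 were higher and 35 lower in replicate 2, against 18.3% and 65.0%. In metastases 8 members lay above and 26 below all 3 c-Myc-low libraries in c-Myc-high replicate 1, 25 above and 6 below in replicate 2, and 10 above and 19 below in replicate 3. For all tested genes these shares were 14.7% above and 52.0% below, 29.5% and 35%, and 16.2% and 62.1%.

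By role, the 4 cyclin and CDK1 genes were all above both c-Myc-low libraries in primary c-Myc-high replicate 1, and all below them in replicate 2. All 12 spindle and cytokinesis genes were below in primary replicate 2, with a median ratio to the c-Myc-low mean of 0.213, and 9 of them were above in replicate 1, with a median ratio of 1.49. The 8 kinetochore and checkpoint genes were all below the c-Myc-low libraries in metastatic c-Myc-high replicate 1, with a median ratio of 0.401. In metastatic c-Myc-high replicate 2 all 4 cyclin and CDK1 genes and all 4 anaphase genes were above the c-Myc-low libraries, with median ratios of 1.68 and 1.5. Metastatic c-Myc-high replicate 3 was mixed, with 3 of 4 anaphase genes above and 8 of 12 spindle genes below. Of all tested genes, 27.7% were above in primary c-Myc-high replicate 1 and 65.0% were below in replicate 2. In metastatic c-Myc-high cells 52.0% were below in replicate 1 and 29.5% above in replicate 2. In replicate 3, 16.2% were above and 62.1% below, so its spindle genes lay near that share.

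**Figure D3:**
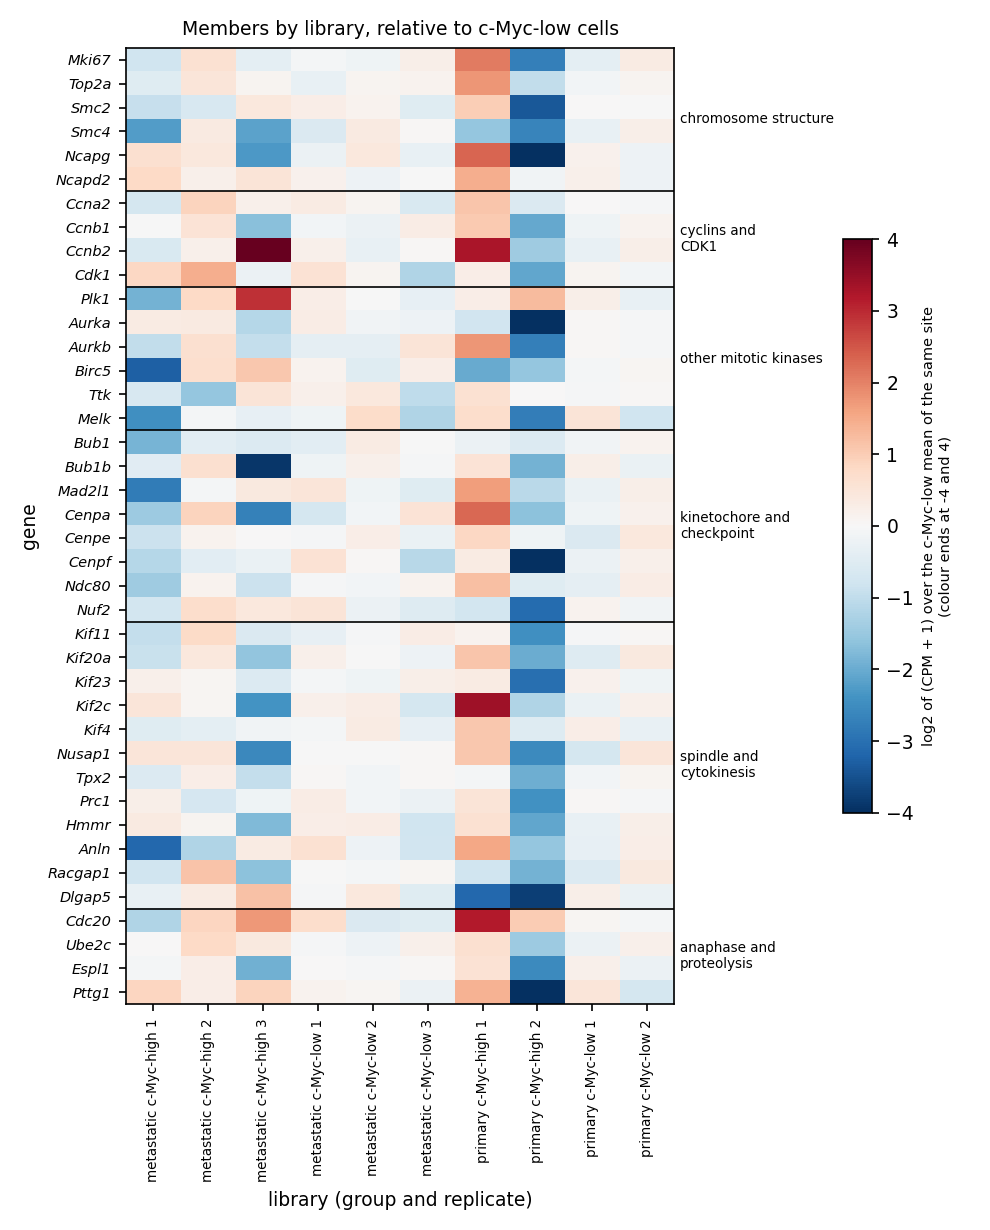
Level of each member (rows, grouped by role) in each library (columns) as the log2 of CPM + 1 over the mean of the c-Myc-low libraries from the same site; the colour scale ends at -4 and 4. The column of primary c-Myc-high replicate 1 is mostly red and that of replicate 2 mostly blue, with 38 of 40 members higher in replicate 1. The share of all tested genes higher in replicate 1 was not computed.

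The protein of Mki67 (chromosome 7, 135689784 to 135716361 in GRCm38) coats mitotic chromosomes and is the standard proliferation marker. Averaged over all 10 libraries, Mki67 had the highest level of the list per transcript length. Its mean over all 10 libraries was 14.7 RPKM, the deposited reads per length and library size (SD 21.8), next to 14.4 RPKM (SD 21.6) for Top2a, and with such spreads the order of the 2 is not resolved. Mki67 stood at 255, 685 and 336 CPM in metastatic c-Myc-high libraries, 418, 392 and 525 in metastatic c-Myc-low, 2826 and 99.6 in primary c-Myc-high and 509 and 836 in primary c-Myc-low libraries. The primary c-Myc-high libraries lay on either side of all 8 others. Top2a (chromosome 11, 98992943 to 99024189), the topoisomerase that untangles sister chromatids, stood at 74.7, 146 and 114 CPM in metastatic c-Myc-high, 85.7, 113 and 115 in metastatic c-Myc-low, 613 and 90.2 in primary c-Myc-high and 168 and 192 in primary c-Myc-low libraries. All metastatic c-Myc-low libraries were below both primary c-Myc-low ones. Ncapd2, a condensin subunit that helps compact chromosomes, stood at 42.9, 28.3 and 35.3 CPM in metastatic c-Myc-high, 27.9, 21.3 and 24.3 in metastatic c-Myc-low, 45.1 and 14.2 in primary c-Myc-high and 18.2 and 13.4 in primary c-Myc-low libraries. It was higher in all metastatic c-Myc-high than in all metastatic c-Myc-low libraries, by a narrow gap.

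Among the cyclins, Ccna2, which partners CDKs in S and G2 phase, stood at 29.3, 90.5 and 56.4 CPM in metastatic c-Myc-high, 61.9, 52.7 and 31.3 in metastatic c-Myc-low, 167 and 50.8 in primary c-Myc-high and 77.9 and 74.5 in primary c-Myc-low libraries. Ccnb1, the main cyclin of mitotic entry, stood at 7.67, 11.8 and 1.80 CPM in metastatic c-Myc-high, 7.19, 6.56 and 9.77 in metastatic c-Myc-low, 27.1 and 2.36 in primary c-Myc-high and 11.2 and 14.3 in primary c-Myc-low libraries. For both genes each c-Myc-high group overlapped its c-Myc-low partner. Its relative Ccnb2 (chromosome 9, 70407692 to 70421547), whose promoter with 3 CCAAT boxes is printed above, stood at 11.8, 21.3 and 401 CPM in metastatic c-Myc-high, 21.2, 14.6 and 19.1 in metastatic c-Myc-low, 191 and 6.44 in primary c-Myc-high and 15.1 and 22.6 in primary c-Myc-low libraries. The 2 high values each came from 1 library, and the other 8 lay between 6.44 and 22.6 CPM. Cdk1, the kinase that drives mitotic entry, stood at 28.4, 44.2 and 13.0 CPM in metastatic c-Myc-high, 23.6, 17.1 and 6.15 in metastatic c-Myc-low, 22.8 and 3.67 in primary c-Myc-high and 20.2 and 17.0 in primary c-Myc-low libraries, and all groups of the same site overlapped.

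Of the other mitotic kinases, Plk1, which acts in centrosome maturation and mitotic entry, stood at 0.667, 9.82 and 46.3 CPM in metastatic c-Myc-high, 6.51, 5.12 and 3.98 in metastatic c-Myc-low, 8.70 and 18.7 in primary c-Myc-high and 8.64 and 5.61 in primary c-Myc-low libraries. Metastatic c-Myc-high cells thus held both its lowest and its highest value. Aurkb, the catalytic subunit of the chromosomal passenger complex, stood at 9.15, 30.4 and 9.42 CPM in metastatic c-Myc-high, 14.4, 14.7 and 27.8 in metastatic c-Myc-low, 122 and 4.38 in primary c-Myc-high and 35.8 and 34.3 in primary c-Myc-low libraries. Birc5 (survivin), another subunit of that complex, stood at 0.791, 26.2 and 35 CPM in metastatic c-Myc-high, 17.8, 11.3 and 19.5 in metastatic c-Myc-low, 3.33 and 5.0 in primary c-Myc-high and 15.5 and 17.6 in primary c-Myc-low libraries. Unlike Aurkb, it was below both primary c-Myc-low libraries in both primary c-Myc-high ones. Ttk (chromosome 9, 83834689 to 83872389), the Mps1 kinase that starts checkpoint signalling at kinetochores, stood at 6.89, 3.22 and 16.7 CPM in metastatic c-Myc-high, 13.4, 15.8 and 5.14 in metastatic c-Myc-low, 58.5 and 38.8 in primary c-Myc-high and 37.1 and 39 in primary c-Myc-low libraries. It was higher in all 4 primary than in all 6 metastatic libraries. Among all tested genes, 8.18% were lower in every metastatic than in every primary library of c-Myc-high cells, and 16.1% in c-Myc-low cells. The share that separated all 4 primary from all 6 metastatic libraries was not computed. Melk, a kinase of dividing cells with the lowest mean of the list (0.308 RPKM, SD 0.316), stood at 0, 4.17 and 3.38 CPM in metastatic c-Myc-high, 3.85, 8.18 and 1.40 in metastatic c-Myc-low, 10.1 and 0.0111 in primary c-Myc-high and 8.74 and 2.90 in primary c-Myc-low libraries, and no group was separate from another.

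The kinetochore and checkpoint genes (Bub1, Bub1b, Mad2l1, Cenpa, Cenpe, Cenpf, Ndc80 and Nuf2) summed to 97.3, 284 and 145 CPM in metastatic c-Myc-high, 243, 239.5 and 209 in metastatic c-Myc-low, 529 and 86.2 in primary c-Myc-high and 231 and 309 in primary c-Myc-low libraries. In each site the c-Myc-high sums lay on both sides of the c-Myc-low ones. Bub1, a checkpoint kinase at kinetochores, stood at 3.46, 11 and 10.1 CPM in metastatic c-Myc-high, 11.2, 19.5 and 15 in metastatic c-Myc-low, 12.7 and 9.98 in primary c-Myc-high and 13.6 and 16.8 in primary c-Myc-low libraries. In plain CPM the c-Myc-high libraries lay below the c-Myc-low ones in both sites, but with TMM scaling the groups overlapped in both, and the fitted log2 fold change in primary cells was 0.15.

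Among spindle genes, Dlgap5 (chromosome 14, 47387779 to 47418407), the HURP protein that stabilises kinetochore microtubules, was below 1 CPM in both primary c-Myc-high libraries. It stood at 10.1, 16.0 and 29.1 CPM in metastatic c-Myc-high, 11.9, 17.0 and 8.53 in metastatic c-Myc-low, 0.685 and 0.0859 in primary c-Myc-high and 16.4 and 11.4 in primary c-Myc-low libraries. Both primary c-Myc-high libraries lay below all 8 others, including replicate 1, where most members were highest. Of all tested genes, 40.2% were lower in both of them than in both primary c-Myc-low libraries. Against all metastatic c-Myc-high libraries 19.4% were lower in both. The share that lay below all 8 others was not computed. Kif4, a chromokinesin of the spindle midzone, stood at 11.8, 12.8 and 15.5 CPM in metastatic c-Myc-high, 16.0, 21.6 and 13.4 in metastatic c-Myc-low, 74.8 and 24 in primary c-Myc-high and 41.8 and 27.9 in primary c-Myc-low libraries. As with Ttk, all 4 primary libraries lay above all 6 metastatic ones, an order whose share among all tested genes was not computed. Kif2c, a microtubule depolymerase of centromeres, stood at 6.47, 4.54 and 0.00646 CPM in metastatic c-Myc-high, 5.15, 5.50 and 2.27 in metastatic c-Myc-low, 54.6 and 1.27 in primary c-Myc-high and 3.42 and 5.10 in primary c-Myc-low libraries, so that its 1 high value was a single library.

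In anaphase, Cdc20 (chromosome 4, 118432901 to 118437352), the activator of the anaphase-promoting complex, stood at 4.76, 23.0 and 43.0 CPM in metastatic c-Myc-high, 20.4, 7.86 and 8.50 in metastatic c-Myc-low, 169 and 37.3 in primary c-Myc-high and 18.9 and 16.9 in primary c-Myc-low libraries. It was higher in both primary c-Myc-high than in both primary c-Myc-low libraries. Ube2c, the ubiquitin-conjugating enzyme of that complex, stood at 13.6, 24.1 and 17.9 CPM in metastatic c-Myc-high, 13.2, 11.6 and 15.9 in metastatic c-Myc-low, 33.7 and 7.15 in primary c-Myc-high and 18 and 24.6 in primary c-Myc-low libraries. Espl1 (separase), the protease that cuts cohesin, stood at 10.2, 13.1 and 2.10 CPM in metastatic c-Myc-high, 10.8, 10.2 and 11.1 in metastatic c-Myc-low, 18.4 and 1.24 in primary c-Myc-high and 13.9 and 10.1 in primary c-Myc-low libraries. Each c-Myc-high group of the last 2 genes overlapped its partner, and Espl1 had the second lowest mean of the list at 0.310 RPKM (SD 0.216). Pttg1 (securin), the separase inhibitor, stood at 96.6, 63.1 and 99.0 CPM in metastatic c-Myc-high, 58.9, 55.4 and 44.3 in metastatic c-Myc-low, 99.8 and 1.27 in primary c-Myc-high and 52.2 and 22.6 in primary c-Myc-low libraries, and its metastatic groups did not overlap.

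**Figure D4:**
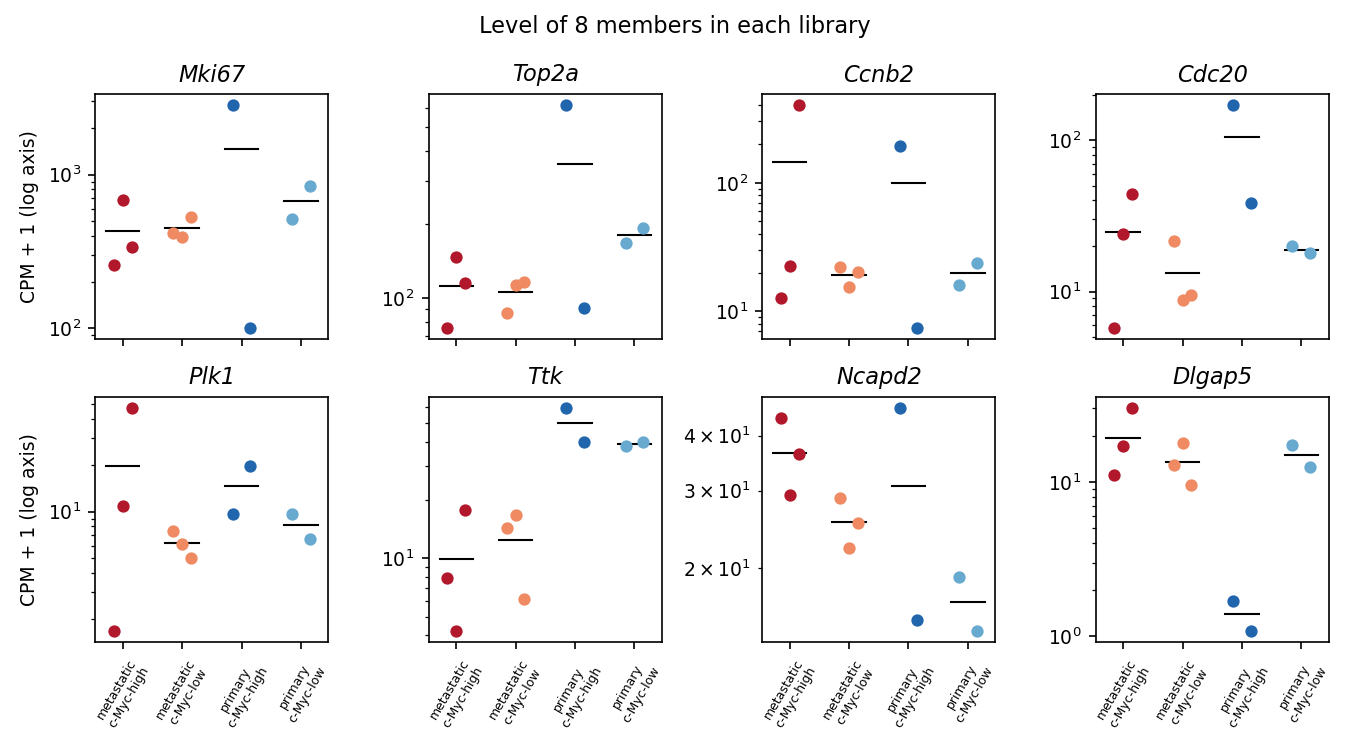
Level of 8 members in each library as CPM + 1 on a log axis, by group; points are libraries and horizontal lines are means of CPM + 1 per group (3 libraries per metastatic, 2 per primary group). Dlgap5 is below 1 CPM in both primary c-Myc-high libraries, Ttk is higher in all primary than in all metastatic libraries, and Ccnb2 reaches 401 and 191 CPM in 1 library each of the c-Myc-high groups.

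The comparison named in the study's design text, metastatic against primary c-Myc-high cells, was made with edgeR's quasi-likelihood test over all genes. No member passed an adjusted p of 0.05 (Benjamini-Hochberg), against 3.97% of 16805 tested genes, of which 278 were higher and 389 lower in metastases. At an unadjusted p under 0.05, 1 member was higher and 4 were lower, while 16.3% of all tested genes were higher and 9.96% lower at that level (26.3% together). The median log2 fold change of the members was -0.77, with 12 of 40 positive, beside 0.38 over all tested genes. Dlgap5 came closest, with a log2 fold change of 5.43 (SE 1.39, edgeR adjusted p = 0.0518), and the other 4 at an unadjusted p under 0.05 were Ttk, Kif4, Top2a and Cdc20. The metastatic c-Myc-high libraries together held 191 counts of Dlgap5 and the primary ones 3, a ratio of 37.3 in CPM terms. Its exact 95% binomial interval of 12.6 to 183 covers counting error only, not the spread between libraries. Ttk had a log2 fold change of -2.55 (SE 0.94, edgeR adjusted p = 0.123) and Kif4 of -2.05 (SE 0.77, edgeR adjusted p = 0.129). The other values depended on primary c-Myc-high replicate 1. Top2a stood at -1.83 (SE 0.73, edgeR adjusted p = 0.147), Cdc20 at -2.23 (SE 0.97, 0.174), Aurkb at -2.21 (SE 1.05, 0.202) and Mki67 at -1.98 (SE 0.97, 0.214). Without that library they were -0.32, -1.15, 1.14 and 1.40 in the same order, and Kif4 was -1.42 and Dlgap5 9.79. That Dlgap5 value rests on primary c-Myc-high replicate 2 alone, where its 0.138 estimated counts were rounded to 0, so its size is not resolved. The remaining textbook genes ranged from -1.33 (SE 1.11, edgeR adjusted p = 0.454) for Ccnb1 to 2.07 (SE 1.31, edgeR adjusted p = 0.321) for Birc5. DESeq2 called Dlgap5 higher (adjusted p = 0.000478) and Kif4 and Ttk lower (adjusted p = 0.0133 and 0.0297), at a level where it called 12.1% of all tested genes higher and 7.53% lower.

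The groups of this comparison did not overlap for 4 members: Dlgap5 was higher and Cenpe, Kif4 and Ttk were lower in all metastatic c-Myc-high libraries. Among all tested genes 19.4% were higher and 8.18% lower in this sense. With TMM scaling Bub1 joined the lower ones (10.2% of genes), and Dlgap5 was again the only higher one (16.5%). The direction of the members' median depended on a single library. Without primary c-Myc-high replicate 1 it was 1.12, close to the all-gene median of 1.10 in that fit. Without replicate 2 it was -1.54, beside an all-gene median of 1.23. Here edgeR called Pttg1 higher in the first case (log2 fold change 5.57, adjusted p = 0.040) and Mki67, Top2a and Aurkb lower in the second (-2.87, -2.53 and -3.10, adjusted p = 0.0342, 0.0342 and 0.0406). Each of these fits leaves 1 primary c-Myc-high library, which is assumed to vary like the other groups. They called 0.329% of all tested genes higher in the first case and 4.05% lower in the second. Without metastatic c-Myc-high replicate 3, Dlgap5 (4.67, edgeR adjusted p = 0.0491) and Ttk (-3.57, edgeR adjusted p = 0.0482) passed, beside 4.3% of genes higher and 2.68% lower.

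**Figure D5:**
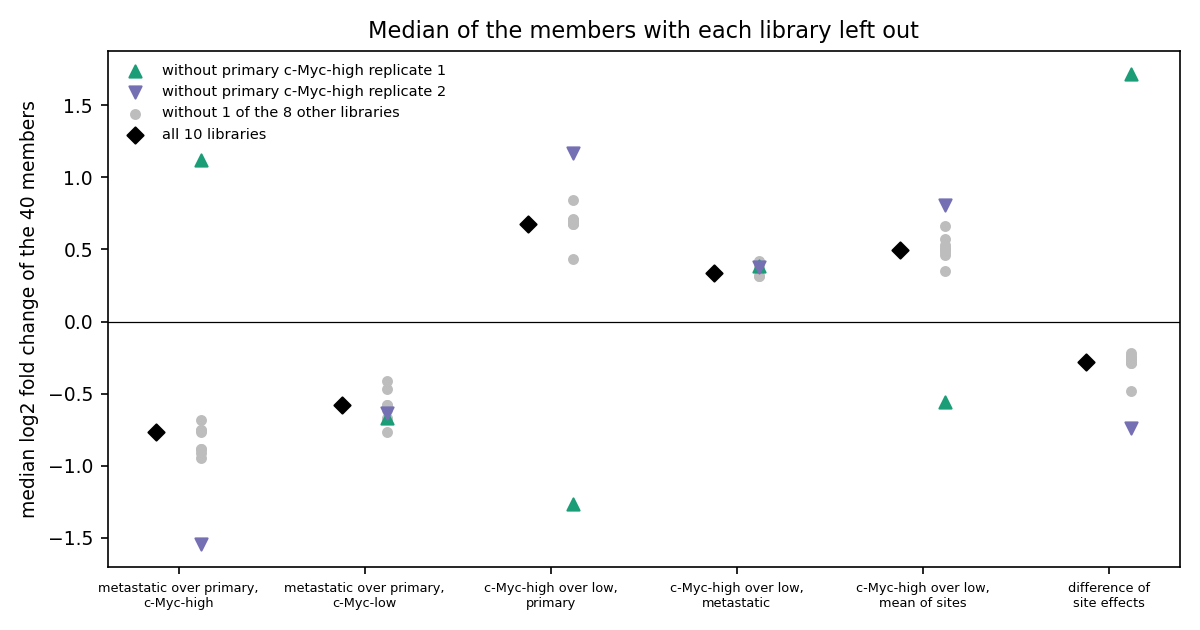
Median log2 fold change of the 40 members (vertical axis) in each of the 6 comparisons, with all 10 libraries (diamonds) and with each library left out in turn (triangles for the primary c-Myc-high libraries, grey points for the others). Leaving out primary c-Myc-high replicate 1 turns the sign in 4 comparisons, to 1.12, -1.26, -0.56 and 1.72, where the medians of all genes, not drawn, were 1.10, -0.72, -0.44 and 0.89, while the metastatic c-Myc-low against primary c-Myc-low and the metastatic c-Myc-high against c-Myc-low medians keep theirs.

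In c-Myc-low cells the same site comparison gave lower values for most members, none of them past the test. No member was called, against 2.11% of tested genes, of which 63 were higher and 292 lower in metastases. The median log2 fold change was -0.58, with 6 of 40 positive, beside 0.10 over all genes. It lay between -0.77 and -0.41 with any single library left out. From RPKM it was closer to that of no change, at -0.11 and -0.20 with pseudocounts of 1 and 0.1. There 15 and 16 of 40 members were positive, and the medians over all genes were 0.21 and 0.41. No member had an unadjusted p under 0.05, while 9.12% of tested genes were higher and 6.03% lower at that level (15.1% together). All 10 textbook genes were negative, from -1.01 for Aurkb to -0.18 for Birc5, while 53.8% of all tested genes were positive. Ttk had the lowest p, with a log2 fold change of -1.94 (SE 0.92, edgeR adjusted p = 0.352), followed by Kif4 at -1.19 (SE 0.76, 0.581) and Top2a at -0.95 (SE 0.73, 0.730). Ttk passed in limma-voom with quality weights (-1.72, adjusted p = 0.0160), which called 9.6% of tested genes lower. The groups did not overlap for 14 members. Ncapd2 was higher in all metastatic c-Myc-low libraries, and 13 were lower, among them Top2a, Ccna2, Ccnb1, Aurkb, Ube2c, Kif4 and Ttk, as were 16.1% of tested genes (28.2% were higher). With TMM scaling 18 members were lower, as were 20.1% of genes, and Ncapd2 was higher, as were 25% of genes. This comparison shares no library with the one in c-Myc-high cells. Both came from the same fit with a shared estimate of spread, and the number of animals was not given, so they may not be independent. Keratinocyte, leukocyte and melanocyte marker sums differed between the sites in the same libraries, and their part in these values was not tested.

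Between the c-Myc classes no gene at all was called by edgeR (0%) in either site or in their mean. In primary tumours 1 member was higher and 1 lower at an unadjusted p under 0.05, beside 4.29% of tested genes higher and 7.33% lower (11.6% together). DESeq2 called 1.22% of genes lower, with Dlgap5 as the only member (adjusted p = 0.0382). The members' median log2 fold change was 0.68, with 30 of 40 positive, beside -0.12 over all genes. It was -1.26 without replicate 1 and 1.17 without replicate 2 of the c-Myc-high cells, beside all-gene medians of -0.72 and -0.71. The mean over libraries of the log2 summed level differed in sign from this median, at -0.24. Dlgap5 had a log2 fold change of -4.60 (SE 1.39, edgeR adjusted p = 0.419), Cdc20 of 3.05 (SE 1.15, edgeR adjusted p = 0.419) and Kif2c of 3.17 (SE 1.76, edgeR adjusted p = 0.476). Without c-Myc-high replicate 1 Kif2c was -0.89, Cdc20 1.96 and Dlgap5 -8.99. The Dlgap5 value rests on its rounded count of 0 in replicate 2. In counts, c-Myc-high libraries held 3 and c-Myc-low libraries 150 of Dlgap5, so that its CPM level was 32.9 times as high in c-Myc-low cells (exact 95% binomial interval 11 to 161, for counting error only). Plk1 and Cdc20 were higher in both c-Myc-high libraries (6.11% of tested genes were), and 7 members were lower in both (40.2% were), namely Bub1, Aurka, Birc5, Smc4, Nuf2, Racgap1 and Dlgap5. With TMM scaling the counts were 7 higher (10.8% of genes) and 5 lower (29.8%), without Bub1 and Racgap1 among the lower.

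In metastases the members' median was 0.33, with 31 of 40 positive, beside 0 over all genes, and it lay between 0.32 and 0.42 with any single library left out. From RPKM it was negative, at -0.23 and -0.52 with pseudocounts of 1 and 0.1, with 9 of 40 positive each time, beside -0.36 and -0.86 over all genes. Only Ccnb2 had an unadjusted p under 0.05, as did 4.8% of tested genes (3.05% higher and 1.76% lower), with a log2 fold change of 3.71 (SE 1.42, edgeR adjusted p = 1). It was followed by Plk1 at 2.52 (SE 1.25, edgeR adjusted p = 1) and Cdc20 at 1.53 (SE 0.89, edgeR adjusted p = 1). All 3 values rested on c-Myc-high replicate 3, without which they were 0.16, 0.20 and 0.43. All 10 textbook genes were positive, from 0.12 (SE 0.94) for Aurkb to 2.52 for Plk1, as were 49.5% of all tested genes. Ncapd2 and Pttg1 were higher in every c-Myc-high library than in every c-Myc-low one, as were 1.23% of tested genes, and Bub1 was lower, as were 14%. With TMM scaling Ube2c was also higher (3.28% of genes were), and no member was lower (7.65% were). DESeq2 called no member here and 0.512% of all genes.

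Averaged over both sites, c-Myc-high cells had a median of 0.50 with 30 of 40 members positive, beside -0.11 over all genes, and this turned to -0.56 without primary c-Myc-high replicate 1, beside -0.44 over all genes. From RPKM it was -0.08 and -0.55 with pseudocounts of 1 and 0.1, beside -0.31 and -0.82 over all genes. Cdc20 stood at 2.29 (SE 0.73, edgeR adjusted p = 0.305), Ccnb2 at 3.27 (SE 1.12, 0.308) and Ncapd2 at 1.27 (SE 0.56, 0.368). These were the 3 members at an unadjusted p under 0.05, a level that 12.9% of all tested genes reached (5.34% higher and 7.52% lower). DESeq2 called Cdc20 higher (adjusted p = 0.0280), beside 1.99% of genes. Cdc20 was positive in both sites and lay between 1.74 and 2.63 with any library left out. Ccnb2 was 1.55 without primary c-Myc-high replicate 1 and 1.5 without metastatic c-Myc-high replicate 3.

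Whether the site difference itself differed between the c-Myc classes was tested as an interaction (the fold change in c-Myc-high minus that in c-Myc-low cells), for which edgeR called no gene (0%). The members' median was -0.28, with 16 of 40 positive, beside 0.21 over all genes, and it turned to 1.72 without primary c-Myc-high replicate 1, beside 0.89 over all genes. Dlgap5 had the lowest p, with a difference of log2 fold changes of 5.75 (SE 1.65, unadjusted p = 0.00443 and adjusted p = 0.724 by edgeR's quasi-likelihood test). DESeq2 called it (adjusted p = 0.0422) at a level that 0.327% of all genes passed in that direction. Kif2c followed at -2.91 (SE 2.16, edgeR adjusted p = 0.823; 1.14 without primary c-Myc-high replicate 1) and Birc5 at 2.25 (SE 1.72, edgeR adjusted p = 0.828). At an unadjusted p under 0.05, 6.84% of tested genes passed (4.74% positive and 2.1% negative).

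Of the factors that act on these promoters, Foxm1 stood at 12, 41 and 12.5 CPM in metastatic c-Myc-high, 51.8, 42.1 and 38.3 in metastatic c-Myc-low, 192 and 4.99 in primary c-Myc-high and 47.3 and 31.5 in primary c-Myc-low libraries. It was thus highest and lowest in the 2 libraries that were also highest and lowest for the members' sum. Myc had the same extremes (818 and 69.5 CPM), and the share of all tested genes that did was not computed. For metastatic over primary c-Myc-high cells the log2 fold change of Foxm1 was -2.43 (SE 1.03, edgeR adjusted p = 0.168). Mybl2 did not have its extremes in those 2 libraries in that order. It stood at 1.28, 13.0 and 1.60 CPM in metastatic c-Myc-high, 5.20, 3.69 and 8.05 in metastatic c-Myc-low, 4.10 and 13.2 in primary c-Myc-high and 7.97 and 7.10 in primary c-Myc-low libraries. Myc, whose level the GFP label stands for, was at 124, 303 and 173 CPM in metastatic c-Myc-high, 132, 306 and 363 in metastatic c-Myc-low, 818 and 69.5 in primary c-Myc-high and 196 and 332 in primary c-Myc-low libraries. The libraries of both classes overlapped in both sites, so the Myc RNA did not separate the sorted classes.

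Of 125 other mitotic genes, 115 could be tested, and 1 of them was called in 1 comparison, in which 3.97% of all tested genes were called. Kif14, a kinesin of cytokinesis, was lower in metastatic than in primary c-Myc-high cells, at a log2 fold change of -4.17 (SE 1.0, edgeR adjusted p = 0.0428). It stood at 41.6, 9.81 and 2.31 CPM in metastatic c-Myc-high and 283 and 263 CPM in primary c-Myc-high libraries, against 8.57 to 17.9 CPM in metastatic c-Myc-low and 25 and 15.2 CPM in primary c-Myc-low libraries. With 1 library left out its fold change lay between -5.95 and -3.68 and its adjusted p between 0.0215 and 0.0812, and the call was lost in 8 of 10 such fits. It was also lost from the highest transcript row (adjusted p = 0.0673), from only the groups compared (0.169) and from RPKM (0.127 and 0.112). The medians of the 115 genes were -0.32 in that comparison, -0.35 for the sites in c-Myc-low cells, 0.40 and 0.15 for c-Myc-high over c-Myc-low cells in primary tumours and metastases, 0.27 for their mean and 0.01 for the interaction. Each of the 6 had the sign of the 40 members' median except the interaction. Of 34 genes of the G1/S transition and DNA replication, 1 was called, lower in metastatic c-Myc-high cells (3.97% of all genes were called there), and their median was 0.21. It was Prim1, a primase subunit chosen here after its value was seen (-3.90, SE 0.76, edgeR adjusted p = 0.0183), and its call was lost without metastatic c-Myc-high replicate 1 (adjusted p = 0.0591), in limma-voom (0.147), from the highest transcript row (0.0744), from only the groups compared (0.135) and from RPKM (0.103 and 0.0819). None of 13 genes for D cyclins and CDK inhibitors was called in any of the 6 comparisons.

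A gene's level was a sum over transcript rows, which numbered 1 for 11 members and up to 14 for the others. Exons of 11 members overlap another gene of the annotation, 9 of them on the opposite strand, among them Ccna2 with Exosc9, Cdc20 with Elovl1, Kif4 with Pdzd11 and Ube2c with Tnnc2. Strandedness was not given in the sources used here, so reads of these pairs may be shared and their values are uncertain to that extent. Mki67, Ccnb2, Ttk and Dlgap5 overlap no other annotated exon.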

How the data were processed

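Total RNA of the sorted cells was amplified, made into libraries and sequenced on an Illumina sequencer, per the labels' protocols. The authors deposited estimated counts per transcript, not scaled between libraries, and RPKM values per transcript, scaled by the authors to length and to a read number above the sum of the counts. Bowtie2, limma and mm10 are named without versions, per the submitters' processing notes; the annotation release and strandedness were not given in the sources used here.

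Estimated counts were summed over transcript rows by gene name. CPM used the unrounded sums, and tests the rounded ones. The 16805 genes that passed edgeR's filter on low counts included all 40 members. They were fitted with edgeR 4.0.16 (R 4.3.3; TMM scaling, robust quasi-likelihood test, 4 groups, no covariate), with Benjamini-Hochberg adjustment over all 16805 genes and a threshold of 0.05. The common coefficient of variation was 0.876. Standard errors came from the F statistic. The tests were also run on simulated counts whose spread was equal in all groups, so that check does not cover the unequal spread of these groups. Alternatives included DESeq2 1.42.0, limma 3.58.1 and leaving out each library. Groups and replicate numbers came from the labels, and replicates' counts differed beyond sampling noise (chi-square per degree of freedom 44.7 to 222). Promoters come from a RefSeq table of GRCm38.p6, gene positions (1-based) from GENCODE for GRCm38, the assembly of mm10.

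The members and all lists were chosen with earlier results of these data known. Full values are given for 10 members with textbook roles, members called in a comparison, the 3 of lowest p in each, and the 2 of highest and of lowest mean RPKM. Bub1 and Pttg1 were added after their values were seen.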

Additional observations from a re-analysis of the deposited data

How the results depend on the processing

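Over 20 alternatives no comparison had more than 3 called members. Of the recomputed counts, medians and sums, 314 stayed within 1.5 times the count or 1 SD, and 76 moved further. For metastatic over primary c-Myc-high cells all genes called were 3304 with DESeq2, 165 with limma-voom, 1273 with no filter, 335 from the highest transcript row, 155 from only the 2 groups, 150 with the replicate block, 68 and 277 from RPKM with a pseudocount of 1 and 0.1, and 0 without both libraries richest in salivary gland genes (chosen after seeing the data). The range was 300 to 1232 with 1 library left out. Members called were 3 with DESeq2 and 1 from the highest row (Pttg1), and 0 to 3 with 1 library left out. In c-Myc-low cells the site comparison gave 1708, 3949, 774, 225, 2276 and 140 genes under the first 6 of these, 559 from RPKM with 0.1, 665 without the salivary-rich libraries and 127 to 572 with 1 left out, with 1 member (Ttk) in limma-voom and from only the 2 groups.

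For c-Myc-high over c-Myc-low cells in primary tumours the genes called were 406 with DESeq2, 2 with limma-voom, 2 with no filter, and 16 and 5 from RPKM; in metastases 86 with DESeq2, 2 from RPKM with 0.1 and 0 to 33 with 1 left out; for their mean 511, 1, 2 and 2 (DESeq2, limma-voom, no filter, RPKM with 0.1) and 0 to 17; for the interaction 85 with DESeq2 and 1 with no filter. DESeq2 called 1 member in the primary, mean and interaction comparisons each. The cause of these differences was not tested.

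From RPKM with 0.1 the members' median turned to -0.41 (primary), -0.52 (metastatic) and -0.55 (mean), and with 1 to -0.23 (metastatic) and -0.08 (mean). Left-out libraries gave -1.54 to 1.12, -0.77 to -0.41, -1.26 to 1.17, 0.32 to 0.42, -0.56 to 0.81 and -0.74 to 1.72 in the 6 comparisons. Single values that reversed were, for metastatic over primary c-Myc-high cells, Plk1 (limma-voom -1.35, block -1.38, RPKM with 0.1 -0.42, without the salivary-rich libraries -1.24, 1 left out -2.02 to 1.26), Ube2c (RPKM with 0.1 0.23, 1 left out -0.94 to 0.80), Mki67 (-2.87 to 1.40), Ccnb1 (-2.10 to 0.76) and Aurkb (-3.10 to 1.14), and Kif2c in primary cells (-0.89 to 4.02) and the interaction (-3.79 to 1.14). Scaling by DESeq2's size factors moved the median of all genes by -0.10, 0.12 and 0.14 in the c-Myc-high site, primary and mean comparisons, and the members' distance from it by less.

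The mean difference in members detected was 0.83, 0, -1.50 and -0.67 in the 4 pairs of groups; with at least 10 counts it was 6.00, -0.33, -10.00 and -3.67, from the highest row 0.83 for the c-Myc-low site pair and -2.0 for the metastatic classes, and after thinning -1.33 for the metastatic classes. With TMM scaling (chosen after seeing the data) members whose groups do not overlap became 7 higher in primary c-Myc-high cells and 0 lower in metastatic ones. The log2 summed level, -0.38 for the c-Myc-low site pair, was -0.54 with TMM scaling and -0.06 in RPKM, and that of the metastatic classes, -0.12, was 0.38 with TMM scaling.

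Replicate numbers were not treated as pairs: of 13 same-numbered pairs 3 correlated above 0.1 (-0.31 to 0.15). With the replicate block 0 members were called and the medians were -0.94, -0.63, 0.32, 0.14, 0.29 and -0.32. The search of member proteins for degradation motifs was not run. The Kif14 and Prim1 calls were also lost with the replicate block (adjusted p = 0.102 and 0.0694) and without both salivary-rich libraries (0.0574 and 0.113). Depth limits low values: 11 members fell under 1 CPM in at least 1 library.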
